A study of Mus musculus with 20 samples.

Results

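Chemokines and their receptors were followed in liver mRNA of mice fed a control diet or CDAHFD, a high fat diet with defined amino acids and no choline that produces steatohepatitis with fibrosis. The genes were every row annotated as protein coding whose symbol was a chemokine ligand (Ccl, Cxcl, Cx3cl, Xcl), a classical receptor (Ccr, Cxcr, Cx3cr, Xcr) or an atypical receptor (Ackr) followed by its number. The name matched 61 rows, of which Cxcl11, annotated as a polymorphic pseudogene, was left out, so 60 genes of 38924 remained. They comprised 38 ligand genes, 18 classical receptor genes and 4 atypical receptor genes under 58 symbols, because Ccl25 and Ackr4 each had 2 rows. Livers came from 20 male mice in 4 groups of 5: C57BL/6J wild type on control diet (NDWT), TSP-1 knockout on control diet (NDKO), wild type on CDAHFD (HFWT) and TSP-1 knockout on CDAHFD (HFKO). The diets ran for 12 weeks in mice bought at 5 weeks of age, after 1 week of acclimation. The knockout lacks thrombospondin 1 (TSP-1, gene Thbs1) in every cell from conception, so a difference between genotypes is not tied to any liver cell type. Each group was part of a larger cohort, and the sampled lobe is the right medial in the series description and the right lateral in the study's methods.

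Chemokines are small secreted proteins that bind G protein-coupled receptors on leukocytes and guide their movement into tissue. Inflammatory chemokines such as Ccl2 or Cxcl1 are made after injury and draw monocytes, neutrophils or T cells, whereas homeostatic chemokines such as Cxcl12 or Ccl21a are made at rest and place cells within organs. Atypical receptors bind chemokines without G protein signalling and remove or redistribute them. In steatohepatitis, hepatocytes, Kupffer cells, stellate cells, endothelium and bile duct cells are all known sources of chemokines, and infiltrating leukocytes carry most of the receptors.

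Expression is given as FPKM, fragments per kilobase of transcript scaled to the fragments assigned to genes, so levels of different genes can be compared. The 20 libraries held 15641545 to 23276322 fragments each, and 3 fragments, taken as the limit of detection, corresponded to 0.129 to 0.192 FPKM for a transcript of 1 kb. No pair of libraries within a group was close to a copy. Thbs1 itself went against the knockout label on control diet, with means of 0.197 (NDWT), 1.30 (NDKO), 4.62 (HFWT) and 3.44 FPKM (HFKO). The table counts the whole gene and does not show which part of Thbs1 was transcribed. The mitochondrial tRNA genes mt-Tg and mt-Tr had 0 fragments in all 10 knockout libraries and at least 1 in all 10 wild type libraries. These tRNA counts separate the labels but do not show a loss of Thbs1. Groups are named as labelled, and every genotype difference below is one between libraries labelled TSP-1 null and libraries labelled WT. Whatever else differed between the mice or libraries of these labels cannot be told apart from the knockout. Each library is from 1 mouse. Hepatocyte markers (Alb, Apoa1, Ttr, Cyp2e1) had summed levels of 35935 to 42732 (NDWT), 39483 to 46195 (NDKO), 27216 to 39167 (HFWT) and 34592 to 46138 FPKM (HFKO). With diet no hepatocyte marker was called in WT, and Cyp2e1 was called lower in TSP-1 null.

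On CDAHFD most of the chemokine ligands that could be tested were higher than on control diet, in WT and in TSP-1 null livers. So were the 9 of 18 classical receptors that could be tested, but 8 of these were testable only because of their levels in CDAHFD livers. Of the 60 genes, 37 passed the expression filter, FPKM above 0.5 in at least 5 libraries, and 23 did not. A gene was called changed at a Benjamini-Hochberg adjusted p under 0.05 over all genes tested and a log2 fold change beyond 0.58 on the log2(FPKM + 0.1) scale, in a limma fit of all 20 libraries. In WT livers 31 of the 37 were called, 29 higher and 2 lower, where 48.8% of all 14524 tested genes were called, 44.1% higher and 4.62% lower. In TSP-1 null livers 31 were called, 30 higher and 1 lower, where 45.9% of all genes were called, 41.9% higher and 4% lower. The median log2 fold change of the 37 was 2.19 in WT and 2.02 in TSP-1 null, against 0.53 and 0.50 over all tested genes. In the TSP-1 null comparison the median stayed at 2.02 with Cxcl5, which was at 0 in every NDKO library, set at its lower bound. A gene with fewer than 5 control diet libraries above 0.5 FPKM could pass the filter only with the help of CDAHFD libraries. This was so for 20 of the 37, which were called higher in both genotypes. The filter selected for that direction, so these calls support nothing. Below, such genes are said to have passed through CDAHFD libraries only, with a direction fixed by the filter. The selection was weaker for genes near the limit, such as Cxcr6, with NDWT at 0.59, 0.981, 0.712, 0.185 and 0.609 FPKM. These 20 comprised 11 ligands, 8 classical receptors and 1 atypical receptor. Among the other 17, 9 were higher and 2 lower in WT, and 10 were higher and 1 lower in TSP-1 null. That is 52.9% and 58.8% higher, beside 44.1% and 41.9% of all tested genes. The latter include genes that passed the filter through CDAHFD libraries only, so the sets are unlike, and the difference was not tested.

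The whole table was shifted upward on CDAHFD, and the split of calls depends on whether that shift is kept. After median of ratios scaling the median of all genes fell to 0.01 in WT and 0.00 in TSP-1 null, and the chemokine genes were called 28 higher and 4 lower in WT and 28 higher and 6 lower in TSP-1 null. With that scaling 23.1% of all tested genes were called higher and 14.8% lower in WT, shares that were 22.6% and 13.2% for TSP-1 null. After quantile normalization the calls were 21 higher and 6 lower in each genotype, where 17.3% of all tested genes were called higher and 17.6% lower in WT, shares that were 16.7% and 15.1% for TSP-1 null. Under both scalings the counts include the 20 genes that passed the filter through CDAHFD libraries only. They were not split by that route, so an excess of higher calls supports nothing. In bulk liver RNA more cells of a type and more RNA per cell cannot be told apart, and this holds for every level below.

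**Figure D1:**
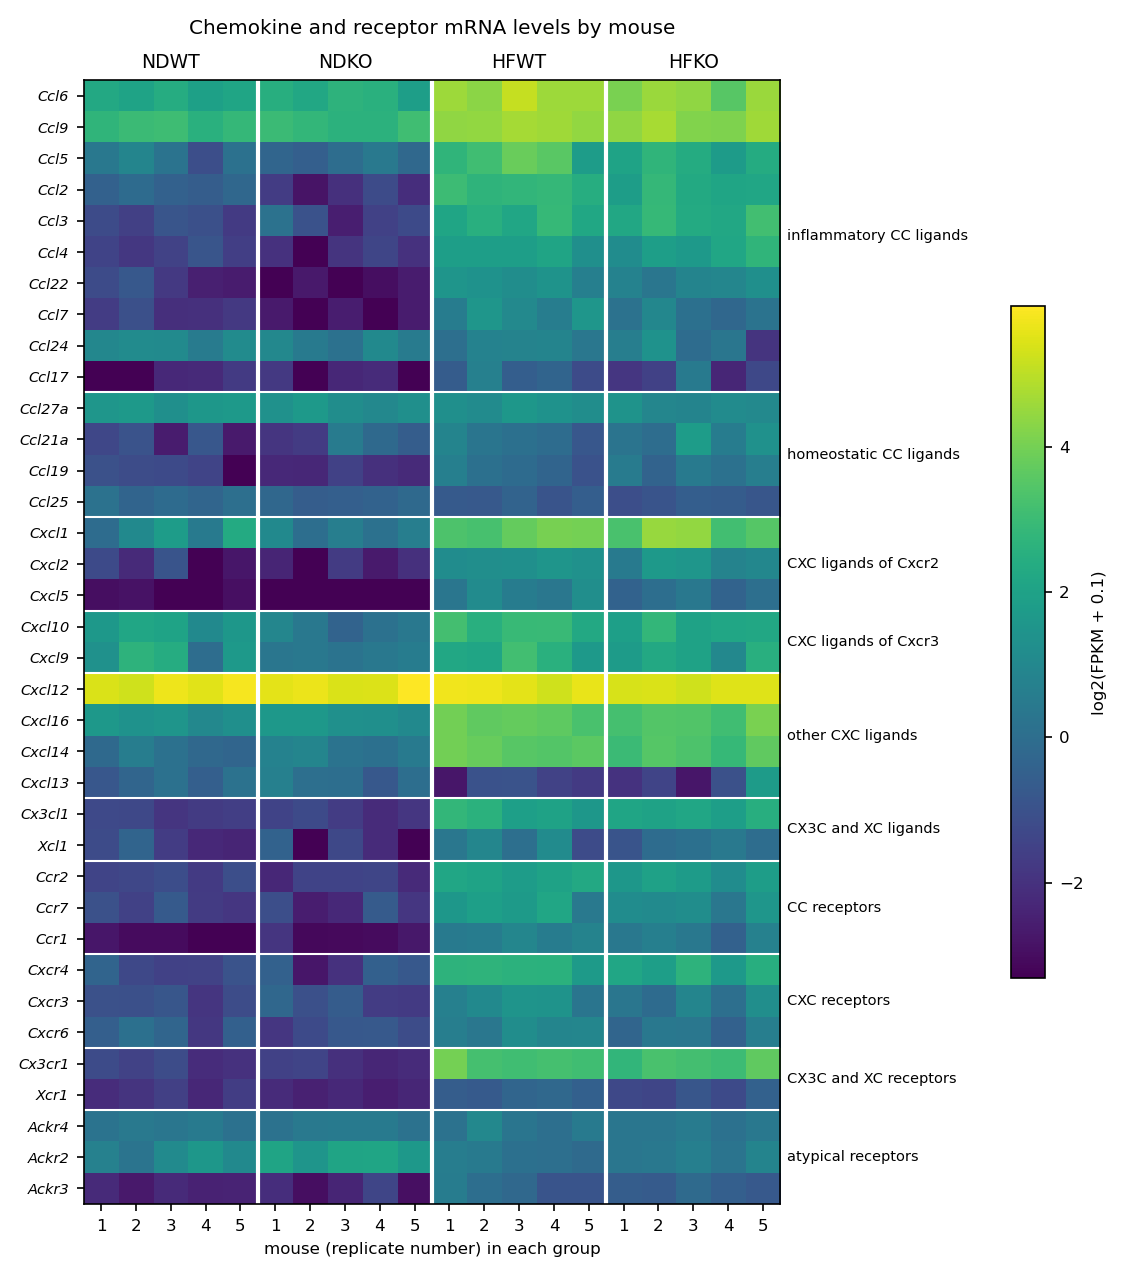
Levels of 36 of the 37 chemokine and receptor genes that passed the filter, in log2(FPKM + 0.1), with 1 column for each mouse in the 4 groups of 5 and genes ordered by role. Most rows turn from dark to bright between the control diet (NDWT, NDKO) and CDAHFD (HFWT, HFKO) columns, Cxcl12 is bright in all 20, and Ackr2 is brightest in NDKO.

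The 30 genes called in both genotypes moved the same way, 29 higher and 1 lower (Ackr2). Because HFWT and HFKO are compared with their own control groups, these comparisons share no libraries, but they come from a single fit with a single estimate of the spread. Cxcl13 was called in WT only and Cxcl9 in TSP-1 null only, and the interaction of diet and genotype was not called for either (limma adjusted p = 0.934 and 0.519). Cxcl12, Ccl24, Ccl27a, Ccl25 (ENSMUSG00000023235.7) and Ackr4 (ENSMUSG00000079355.2) were called in neither. In WT the groups of mice did not overlap for 29 of the 37 genes, 27 higher and 2 lower on CDAHFD, against 56.2% of all tested genes, 50.5% higher and 5.7% lower. In TSP-1 null they did not overlap for 28, 27 higher and 1 lower, against 57.8% of all tested genes, 52.7% higher and 5.03% lower. These counts include the 20 genes whose direction was fixed by the filter, so an excess over all tested genes supports nothing.

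**Figure D2:**
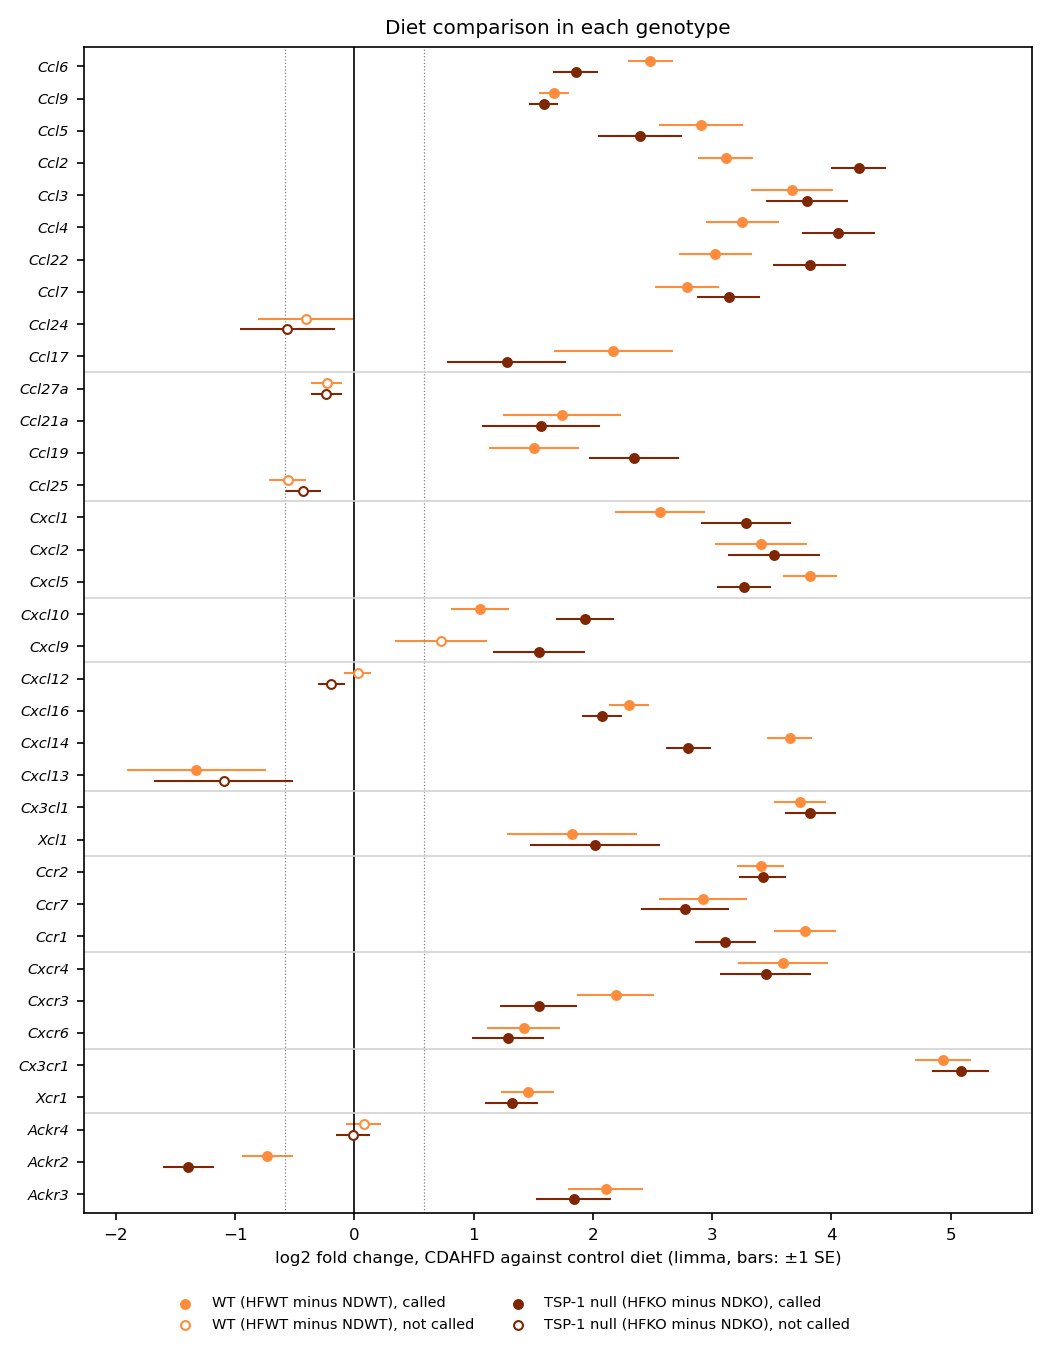
Log2 fold change between CDAHFD and control diet for the same 36 genes in WT (light) and TSP-1 null (dark) mice, with bars of 1 standard error from limma, filled points for called genes and dotted lines at the fold change limit of 0.58 either way. Cx3cr1 lies farthest to the right in both genotypes, at 4.94 and 5.08, and Ackr2 is the only gene with filled points on the left in both.

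Among the inflammatory CC ligands, 10 of 16 passed the filter, and 9 of these were higher on CDAHFD in each genotype, beside 44.1% of all tested genes in WT and 41.9% in TSP-1 null. For 5 of the 9 (Ccl3, Ccl4, Ccl7, Ccl17 and Ccl22) the direction was fixed by the filter. Ccl2 is the main attractant of Ccr2-bearing monocytes. On control diet, Ccl2 stood at 0.642, 0.842, 0.642, 0.563 and 0.749 FPKM in NDWT and at 0.213, 0.039, 0.141, 0.33 and 0.13 in NDKO. On CDAHFD, Ccl2 stood at 8.08, 6.43, 6.67, 7.05 and 5.39 FPKM in HFWT and at 3.42, 7.08, 4.84, 4.22 and 4.33 in HFKO. Every CDAHFD mouse was above every control mouse, and within the control diet every NDKO mouse was below every NDWT mouse. The log2 fold change with diet was 3.11 ± 0.23, limma adjusted p = 5.37e-10, in WT and 4.23 ± 0.23, limma adjusted p = 1.35e-11, in TSP-1 null. Ccl7 also binds Ccr2 and lies next to Ccl2 in the gene cluster at chr11:82035571-82305690. Ccl7 levels on control diet were 0.215, 0.374, 0.14, 0.146 and 0.188 FPKM for NDWT and 0.06, 0, 0.067, 0 and 0.062 for NDKO. Ccl7 on CDAHFD was at 1.39, 2.78, 1.97, 1.44 and 2.82 FPKM for HFWT and 1.02, 1.84, 0.972, 0.758 and 1.05 for HFKO. These NDKO levels rest on 0 or 1 fragment a library, so the ratio of HFKO to NDKO, 28.8, carries a counting interval of 9.51 to 142. In WT the log2 fold change of Ccl7 was 2.79 ± 0.27, limma adjusted p = 2.03e-08.

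Ccl3 and Ccl4, ligands that activated macrophages and T cells secrete, rose with diet in both genotypes. NDWT mice had Ccl3 at 0.337, 0.235, 0.44, 0.38 and 0.196 FPKM, and NDKO mice at 1.01, 0.402, 0.07, 0.245 and 0.323 FPKM. HFWT mice had Ccl3 at 4.22, 5.61, 4.38, 7.26 and 4.53 FPKM, and HFKO mice at 4.55, 7.34, 4.93, 4.56 and 8.7 FPKM. The diets separated fully, although NDKO replicate 1 stood above the rest of its group, and the change was 3.67 ± 0.34, limma adjusted p = 1.45e-08, in WT and 3.80 ± 0.34, limma adjusted p = 1.08e-08, in TSP-1 null. Control livers held Ccl4 at 0.26, 0.182, 0.255, 0.441 and 0.228 FPKM (NDWT) and 0.147, 0, 0.162, 0.284 and 0.15 FPKM (NDKO). CDAHFD livers held Ccl4 at 3.55, 3.54, 3.51, 4.18 and 2.37 FPKM (HFWT) and 2.20, 3.58, 3.03, 4.37 and 6.60 FPKM (HFKO). All control values came from 5 fragments or fewer, so the ratio in TSP-1 null livers of 28.3 (95% interval 14.7 to 62.6) is given beside the log2 fold change of 4.06 ± 0.31, limma adjusted p = 8.98e-10. Ccl5 is a T and NK cell product that binds Ccr1. On control diet, Ccl5 stood at 1.21, 1.75, 1.05, 0.364 and 0.992 FPKM in NDWT and at 0.707, 0.596, 0.891, 1.24 and 0.773 in NDKO. On CDAHFD, Ccl5 stood at 6.56, 8.51, 13.9, 11.9 and 3.38 FPKM in HFWT and at 4.06, 6.66, 5.15, 3.27 and 5.14 in HFKO. The HFWT mice were widely spread, yet none reached down to the control range. The change was 2.91 ± 0.35, limma adjusted p = 4.36e-07, in WT and 2.39 ± 0.35, limma adjusted p = 5.57e-06, in TSP-1 null.

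Ccl6 and Ccl9, rodent chemokines that bind Ccr1, were the most abundant CC ligands in every group. Ccl6 levels on control diet were 4.67, 4.01, 5.29, 3.77 and 4.27 FPKM for NDWT and 5.56, 4.66, 6.20, 5.82 and 3.53 for NDKO. Ccl6 on CDAHFD was at 24.2, 20.0, 34.8, 23.7 and 23.7 FPKM for HFWT and 16.9, 23.3, 21.3, 11.4 and 23.2 for HFKO. No control mouse exceeded 6.20 FPKM and no CDAHFD mouse fell under 11.4 FPKM, a log2 fold change of 2.48 ± 0.19, limma adjusted p = 8.44e-10, in WT and 1.86 ± 0.19, limma adjusted p = 5.21e-08, in TSP-1 null. NDWT mice had Ccl9 at 6.50, 7.91, 8.19, 5.76 and 7.18 FPKM, and NDKO mice at 7.88, 6.91, 6.17, 6.16 and 8.41 FPKM. HFWT mice had Ccl9 at 20.9, 21.4, 25.9, 24.3 and 21.6 FPKM, and HFKO mice at 21.3, 26.7, 18.2, 17.5 and 24.6 FPKM. The spread within each group was small against the diet difference, 1.67 ± 0.12, limma adjusted p = 5.93e-10, in WT and 1.59 ± 0.12, limma adjusted p = 1.56e-09, in TSP-1 null, and the 2 genotypes had the same control mean of 7.11 FPKM. With Ccl5, Ccl3 and Ccl4 they form a cluster at chr11:83525778-83664683 whose 5 genes were all tested and all called higher on CDAHFD in both genotypes, Ccl3 and Ccl4 with a direction fixed by the filter.

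Ccl22 and Ccl17, dendritic cell and macrophage ligands of Ccr4, share a cluster on chromosome 8 with Cx3cl1. Control livers held Ccl22 at 0.333, 0.49, 0.193, 0.075 and 0.065 FPKM (NDWT) and 0, 0.057, 0, 0.027 and 0.064 FPKM (NDKO). CDAHFD livers held Ccl22 at 2.78, 2.53, 2.23, 2.63 and 1.52 FPKM (HFWT) and 1.62, 1.16, 1.72, 1.83 and 2.33 FPKM (HFKO). All 10 CDAHFD values were above 1 FPKM and all control values under 0.5 FPKM, with a log2 fold change of 3.03 ± 0.31, limma adjusted p = 3.89e-08, in WT. NDKO libraries held at most 3 Ccl22 fragments, and the ratio of HFKO to NDKO was 57.0 (95% interval 27.4 to 143). Ccl17 was near the limit of detection on control diet, with at most 2 fragments, and averaged 0.739 ± 0.472 FPKM (SD, n = 5) in HFWT and 0.426 ± 0.495 FPKM in HFKO, where 1 mouse at 1.30 FPKM stood apart from the other 4 at 0.099 to 0.307 FPKM. Its call in TSP-1 null (limma adjusted p = 0.0276) was lost without NDKO replicate 2 (0.0711) or NDKO replicate 5 (0.0715), after median of ratios scaling (0.0952) or quantile normalization (0.900), with a pseudocount of 1 (0.0793) and with only the 2 groups compared (0.0514). Its call in WT was lost after quantile normalization (0.196). Ccl24, an eosinophil attractant known from alternatively activated macrophages, was the tested gene of this family without a call, at 1.90 ± 0.322 (NDWT), 1.50 ± 0.433 (NDKO), 1.42 ± 0.343 (HFWT) and 1.23 ± 0.871 FPKM (HFKO). It was called lower after median of ratios scaling in TSP-1 null (-1.03, limma adjusted p = 0.0346) and after quantile normalization in WT (-1.32, limma adjusted p = 0.0190) and in TSP-1 null (-1.47, limma adjusted p = 0.0103). HFKO replicate 5 was the lowest of all mice at 0.163 FPKM, and without HFKO replicate 2, the highest at 2.53 FPKM, Ccl24 was called lower in TSP-1 null (log2 fold change -0.89, limma adjusted p = 0.0392).

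The homeostatic CC ligands divided along their route through the filter. Ccl19 and Ccl21a, ligands of Ccr7 that draw T cells and dendritic cells into lymphoid tissue, were called higher. Their direction was fixed by the filter, so the division supports nothing. Ccl25 and Ccl27a, which passed the filter on control diet libraries, were not called. Ccl19 averaged 0.267 ± 0.156 (NDWT), 0.144 ± 0.0598 (NDKO), 0.881 ± 0.398 (HFWT) and 1.15 ± 0.322 FPKM (HFKO), with a log2 fold change of 1.51 ± 0.38, limma adjusted p = 0.0014, in WT and 2.34 ± 0.38, limma adjusted p = 1.74e-05, in TSP-1 null. Ccl21a changed by 1.74 ± 0.49, limma adjusted p = 0.00374, in WT and 1.56 ± 0.49, limma adjusted p = 0.00825, in TSP-1 null, with overlapping groups in both. Reads of Ccl21a may be split with copies, since 310 of the 372 distinct 31-base stretches in Ccl21b transcripts also occur in Ccl21a, and Ccl21b was listed at 0 in every library. The call of Ccl21a in TSP-1 null was lost after median of ratios scaling (limma adjusted p = 0.0631), and its calls and that of Ccl19 in WT were lost after quantile normalization. The call of Ccl19 in WT was also lost with a pseudocount of 1 (log2 fold change 0.55). Ccl27a is a ligand of Ccr10 known from epithelium. On control diet, Ccl27a stood at 2.82, 3.15, 2.36, 2.87 and 3.06 FPKM in NDWT and at 2.47, 3.15, 2.25, 1.90 and 2.33 in NDKO. On CDAHFD, Ccl27a stood at 2.32, 2.10, 2.86, 2.55 and 2.24 FPKM in HFWT and at 2.59, 1.80, 1.73, 2.11 and 1.94 in HFKO. These values overlapped across all 4 groups, and the log2 fold change was -0.23 ± 0.13 in WT and -0.23 ± 0.13 in TSP-1 null, which after median of ratios scaling became -0.75 and -0.73 with calls as lower. Ccl25, the gut-homing ligand of Ccr9, was lower in every HFWT than in every NDWT mouse, but its log2 fold changes of -0.56 ± 0.15 in WT (limma adjusted p = 0.00271) and -0.43 ± 0.15 in TSP-1 null (limma adjusted p = 0.0169) were short of the fold change limit. It was called lower in both after either scaling. In WT it was also called lower without any one of NDWT replicates 2 and 4 or HFWT replicates 3 and 5.

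Cxcl1, Cxcl2 and Cxcl5, the ligands of Cxcr2 that attract neutrophils, were called higher on CDAHFD in both genotypes, Cxcl2 and Cxcl5 with a direction fixed by the filter. They sit with Cxcl3 and Cxcl15 in a cluster at chr5:90759299-90905909. Cxcl1 levels on control diet were 0.857, 2.01, 3.36, 1.28 and 5.00 FPKM for NDWT and 1.98, 0.924, 1.46, 0.985 and 1.45 for NDKO. Cxcl1 on CDAHFD was at 10.2, 9.47, 13.5, 16.5 and 16.0 FPKM for HFWT and 9.55, 22.7, 21.6, 8.76 and 11.3 for HFKO. The highest control mouse, NDWT replicate 5, was still below the lowest CDAHFD mouse, and the change was 2.57 ± 0.38, limma adjusted p = 5.31e-06, in WT and 3.28 ± 0.38, limma adjusted p = 2.59e-07, in TSP-1 null. NDWT mice had Cxcl2 at 0.326, 0.114, 0.426, 0 and 0.048 FPKM, and NDKO mice at 0.092, 0, 0.203, 0.059 and 0.141 FPKM. HFWT mice had Cxcl2 at 2.17, 2.32, 2.34, 2.71 and 2.47 FPKM, and HFKO mice at 1.29, 3.03, 2.85, 1.68 and 1.84 FPKM. No control library exceeded 8 Cxcl2 fragments, against 30 to 57 in the CDAHFD libraries, and the log2 fold change was 3.41 ± 0.38, limma adjusted p = 1.7e-07, in WT and 3.52 ± 0.38, limma adjusted p = 1.27e-07, in TSP-1 null. Transcripts of Cxcl2 and Cxcl3 share 161 31-base stretches, 7.59% of those of Cxcl2. Cxcl5 was close to undetected on control diet. Control livers held Cxcl5 at 0.026, 0.036, 0, 0 and 0.03 FPKM (NDWT) and 0 in every NDKO library. CDAHFD livers held Cxcl5 at 1.15, 2.12, 1.40, 1.18 and 2.27 FPKM (HFWT) and 0.657, 0.927, 1.21, 0.673 and 0.951 FPKM (HFKO). At most 1 Cxcl5 fragment was found in a control library, against 22 to 66 in the CDAHFD libraries. The ratio was 84.2 (95% interval 28.5 to 411) in WT and at least 9.45-fold in TSP-1 null, the latter against 3 fragments per NDKO library. Neutrophil markers (S100a8, S100a9, Ly6g, Csf3r, Retnlg, Mpo) moved alongside, with 4 of the 4 tested called higher in each genotype and summed levels of 1.92 to 6.09 (NDWT), 2.18 to 5.92 (NDKO), 24.6 to 39.8 (HFWT) and 17.0 to 34.6 FPKM (HFKO). Over all tested genes 44.1% were called higher in WT and 41.9% in TSP-1 null. Of the defining neutrophil markers, Ly6g was at 0 in all NDWT and all HFWT libraries and Mpo in all control libraries. Their part in these levels was not tested.

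The promoters of Cxcl1 and Cxcl2 are printed because both genes were called higher in both genotypes and both windows carry the kappaB motif, the binding sequence of NF-kappaB. RefSeq (GRCm38.p6) windows from 250 bases before to 50 after the start site were found for 44 of the 58 symbols, and 40 of them lay within 1000 bases of the gene start given in the files. Each is printed 5′ to 3′ on the strand of the gene, with matches to the kappaB motif on either strand in capitals. The Cxcl1 window is chr5:90890995-90891294, plus strand, with overlapping matches that begin at bases -71 and -70 from the start site. The Cxcl2 window is chr5:90903649-90903948, plus strand, with overlapping matches that begin at bases -97 and -96.
Cxcl1: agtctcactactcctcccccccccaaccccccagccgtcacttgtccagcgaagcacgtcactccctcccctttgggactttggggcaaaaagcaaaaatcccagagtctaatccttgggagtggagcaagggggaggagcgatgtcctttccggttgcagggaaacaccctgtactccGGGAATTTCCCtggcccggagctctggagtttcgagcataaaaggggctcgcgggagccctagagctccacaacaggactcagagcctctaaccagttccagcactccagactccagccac
Cxcl2: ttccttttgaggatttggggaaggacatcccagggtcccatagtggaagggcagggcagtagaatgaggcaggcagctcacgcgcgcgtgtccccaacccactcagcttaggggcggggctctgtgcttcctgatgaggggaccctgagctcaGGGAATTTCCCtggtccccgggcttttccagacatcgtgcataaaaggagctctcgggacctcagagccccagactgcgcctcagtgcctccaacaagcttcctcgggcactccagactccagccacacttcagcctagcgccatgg
The kappaB motif occurred in the windows of 8 of these 40 genes (Ccl9, Ccl20, Cxcl3, Cxcl1, Cxcl10, Ccr3, Ackr2 and Cxcl2) and in 4.51% of all 32851 windows. Among the genes not matched were Ccl2, Ccl4, Ccl5, Ccl7, Ccl11, Ccl24, Ccl26, Cxcl5, Cxcl16, Cxcl17, Ccr7, Ccr10 and Cxcr5. A match is a description of the letters and no evidence of binding in these livers.

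Cxcl9 and Cxcl10, interferon-induced ligands of Cxcr3 on T and NK cells, had smaller log2 fold changes with diet than Cxcl1, Cxcl2 and Cxcl5, a difference that was not tested, and both were lower in NDKO than in NDWT. On control diet, Cxcl10 stood at 3.00, 4.42, 4.07, 2.03 and 2.90 FPKM in NDWT and at 1.82, 1.22, 0.669, 0.988 and 1.20 in NDKO. On CDAHFD, Cxcl10 stood at 8.91, 5.62, 7.43, 7.65 and 4.68 FPKM in HFWT and at 3.63, 6.98, 3.95, 4.33 and 4.59 in HFKO. The 4 groups stood in the order NDKO, NDWT, HFKO and HFWT by mean, NDKO overlapped with no other group, and HFKO overlapped with HFWT and NDWT. The diet difference was 1.05 ± 0.24, limma adjusted p = 0.000656, in WT, lost after median of ratios scaling (limma adjusted p = 0.063) or quantile normalization (0.142), and 1.93 ± 0.24, limma adjusted p = 8.04e-07, in TSP-1 null. Cxcl9 levels on control diet were 2.50, 6.27, 5.16, 0.903 and 3.11 FPKM for NDWT and 1.13, 1.21, 1.05, 1.21 and 1.40 for NDKO. Cxcl9 on CDAHFD was at 4.64, 4.29, 8.78, 5.85 and 3.07 FPKM for HFWT and 3.29, 4.69, 3.98, 1.92 and 5.67 for HFKO. NDWT mice ranged widely, with replicate 4 below every NDKO mouse and replicate 2 above all but 1 HFWT mouse, while the 5 NDKO mice lay within 1.05 and 1.40 FPKM. With diet Cxcl9 changed by 0.73 ± 0.39, limma adjusted p = 0.0959, in WT, not a call, and by 1.55 ± 0.39, limma adjusted p = 0.00139, in TSP-1 null. Without NDWT replicate 2 or 3 it was called in WT too (limma adjusted p = 0.0253 and 0.0454). Art3 lies over the whole of Cxcl10 on the opposite strand at a mean of 0.655 FPKM, and whether counting used strand is not given in the sources used here.

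The promoter windows of Cxcl10 (chr5:92348840-92349139, minus strand) and Cxcl9 (chr5:92328030-92328329, minus strand), neighbours within 28 kb, are printed since both genes were called between genotypes on control diet. Capitals mark the kappaB motif and the core of the interferon response element, which is GAAA repeated after 2 bases of any kind, on either strand.
Cxcl10: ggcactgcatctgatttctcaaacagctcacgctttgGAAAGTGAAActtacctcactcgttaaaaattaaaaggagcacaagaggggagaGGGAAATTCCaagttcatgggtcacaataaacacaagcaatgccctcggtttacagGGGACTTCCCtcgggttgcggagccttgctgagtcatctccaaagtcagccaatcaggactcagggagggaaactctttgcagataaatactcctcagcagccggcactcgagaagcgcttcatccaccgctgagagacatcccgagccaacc
Cxcl9: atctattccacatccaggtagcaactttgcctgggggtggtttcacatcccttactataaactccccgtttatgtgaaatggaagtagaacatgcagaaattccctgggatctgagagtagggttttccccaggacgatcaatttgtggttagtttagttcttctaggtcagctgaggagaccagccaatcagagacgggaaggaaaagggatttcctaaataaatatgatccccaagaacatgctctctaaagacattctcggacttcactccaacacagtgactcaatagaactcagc
In Cxcl10 the interferon response match begins at base -213 and the kappaB matches at -159 and -103, and in Cxcl9 neither letter pattern occurs in the window. The interferon response core was found in 3 of the 40 windows (Cxcl14, Cxcl10, Ccl19) and in 3.44% of all windows. The pattern TGANTCA, which allows any middle base and so is wider than the AP-1 motif, was found in 7 of the 40 and 7.81% of all. Both Cxcl9 and Cxcl10 were among these 7. TATAAA was found in 11 of the 40 and 13.6% of all, with Cxcl9 among them. The matches were counted apart, and a base may belong to more than 1.

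Cxcl12, the ligand of Cxcr4 that keeps haematopoietic cells in place, was the most abundant of the 38 ligands in every group and was not called with diet. NDWT mice had Cxcl12 at 42.8, 38.6, 52.7, 46.0 and 56.8 FPKM, and NDKO mice at 47.2, 50.3, 42.1, 43.2 and 61.4 FPKM. HFWT mice had Cxcl12 at 53.3, 52.4, 47.0, 38.4 and 49.9 FPKM, and HFKO mice at 41.3, 42.7, 38.1, 45.3 and 44.7 FPKM. The 4 groups overlapped throughout, with log2 fold changes of 0.03 ± 0.11, limma adjusted p = 0.829, in WT and -0.19 ± 0.11, limma adjusted p = 0.14, in TSP-1 null, against medians of 0.53 and 0.50 over all genes. After median of ratios scaling it was called lower in TSP-1 null (-0.71, limma adjusted p = 1.85e-05). Endothelial markers (Pecam1, Cdh5, Stab2, Kdr), whose cells are a known source of Cxcl12, had summed levels of 35.8 to 39.2 (NDWT), 30.5 to 39.1 (NDKO), 28.8 to 43.8 (HFWT) and 34.3 to 53.8 FPKM (HFKO), and only Pecam1 was called, in TSP-1 null. As a share of the summed FPKM of all 38 ligands, Cxcl12 was 57.5 ± 6.08 (NDWT), 62.8 ± 4.27 (NDKO), 25.0 ± 3.70 (HFWT) and 25.9 ± 4.67% (HFKO) (mean ± SD, n = 5). The sum itself was 82.4 ± 9.96 (NDWT), 77.5 ± 7.75 (NDKO), 194 ± 13.7 (HFWT) and 167 ± 25.9 FPKM (HFKO), and without Cxcl12 it was 35.1 ± 6.47 (NDWT), 28.6 ± 2.72 (NDKO), 146 ± 15.3 (HFWT) and 125 ± 26.1 FPKM (HFKO). Cxcl12 outweighed the rest of the 38 ligands together in 9 of 10 control diet mice, the exception being NDWT replicate 2 at 48.2%, and in 0 of 10 CDAHFD mice.

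Cxcl14 is an epithelial and stromal chemokine without a settled classical receptor. Control livers held Cxcl14 at 0.801, 1.41, 0.986, 0.767 and 0.715 FPKM (NDWT) and 1.62, 1.74, 1.06, 0.961 and 1.27 FPKM (NDKO). CDAHFD livers held Cxcl14 at 15.6, 13.6, 11.4, 10.9 and 12.0 FPKM (HFWT) and 7.9, 11.2, 10.2, 7.22 and 12.8 FPKM (HFKO). All 10 CDAHFD mice exceeded 7 FPKM and no control mouse reached 1.80 FPKM, a log2 fold change of 3.65 ± 0.19, limma adjusted p = 5.58e-12, in WT and 2.80 ± 0.19, limma adjusted p = 2.24e-10, in TSP-1 null. Cxcl16 is a membrane-bound ligand of Cxcr6 that also acts as a scavenger receptor. On control diet, Cxcl16 stood at 2.94, 2.52, 2.71, 1.91 and 2.32 FPKM in NDWT and at 2.95, 2.97, 2.42, 2.34 and 1.98 in NDKO. On CDAHFD, Cxcl16 stood at 15.5, 12.8, 13.3, 12.3 and 9.52 FPKM in HFWT and at 9.27, 11.0, 10.8, 8.46 and 16.6 in HFKO. Every CDAHFD mouse was above every control mouse, with log2 fold changes of 2.31 ± 0.17, limma adjusted p = 3.9e-10, in WT and 2.08 ± 0.17, limma adjusted p = 1.99e-09, in TSP-1 null. The gene overlaps 552 bases of Zmynd15 (2.29 FPKM on average) on the other strand. Cxcl13, the B cell attractant of lymphoid follicles and the ligand of Cxcr5, was the only ligand called lower in either genotype. It averaged 0.765 ± 0.245 FPKM in NDWT and 0.266 ± 0.155 in HFWT (log2 fold change -1.32 ± 0.58, limma adjusted p = 0.0478), and its groups did not overlap. This call sat at the threshold and was lost without any one of NDWT replicates 2, 3, 4 or 5, HFWT replicates 1, 4 or 5, NDKO replicates 1, 2, 3 or 5, or HFKO replicates 2 or 4, with adjusted p from 0.0505 to 0.131. In HFKO, 4 mice had 0.047 to 0.389 FPKM and replicate 5 had 3.27 FPKM, and without replicate 5 Cxcl13 was called lower in TSP-1 null as well (log2 fold change -1.80, limma adjusted p = 0.00054).

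Cx3cl1 (fractalkine) is a membrane-tethered ligand made by epithelium and endothelium that binds Cx3cr1. Cx3cl1 levels on control diet were 0.313, 0.307, 0.167, 0.204 and 0.23 FPKM for NDWT and 0.261, 0.32, 0.216, 0.118 and 0.173 for NDKO. Cx3cl1 on CDAHFD was at 6.92, 5.87, 3.66, 3.91 and 2.92 FPKM for HFWT and 4.31, 3.98, 4.36, 3.53 and 5.48 for HFKO. The diets lay far apart, and the change was 3.74 ± 0.22, limma adjusted p = 2.28e-11, in WT and 3.82 ± 0.22, limma adjusted p = 2.4e-11, in TSP-1 null. Cholangiocyte markers (Krt19, Krt7, Epcam, Sox9) rose too, 4 of 4 in each genotype, from 2.05 to 3.11 FPKM in NDWT and 2.58 to 3.85 in NDKO to 23.4 to 45.6 in HFWT and 17.7 to 34.4 in HFKO, and their part in the levels of Cx3cl1 and Cxcl14 was not tested. Of these 4 markers 2 passed the filter through CDAHFD libraries only. Stellate cell markers (Lrat, Dcn, Pdgfrb, Acta2, Col1a1) were likewise 5 of 5 higher in each genotype, from 43.5 to 54.6 and 54.8 to 61.6 FPKM on control diet to 185 to 342 in HFWT and 205 to 245 in HFKO. Beside both lists, 44.1% of all tested genes in WT and 41.9% in TSP-1 null were called higher. On control diet Acta2 was called lower in NDKO than in NDWT, and no other stellate marker was called. Xcl1, a product of NK and CD8 T cells, was low, at 0.288 ± 0.242 (NDWT), 0.215 ± 0.273 (NDKO), 1.28 ± 0.709 (HFWT) and 0.881 ± 0.296 FPKM (HFKO), with overlapping groups, and was called higher in both genotypes except after quantile normalization. The direction of both Cx3cl1 and Xcl1 was fixed by the filter.

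Cx3cr1 had the largest fold change of the 37 genes in both genotypes on the log2(FPKM + 0.1) scale, and it passed the filter through CDAHFD libraries only. By the ratio of mean FPKM without a pseudocount it was 42.6 in WT, below Cxcl5 (88.2) and Ccr1 (86.6), and 52.2 in TSP-1 null, below Ccl22 (58.4), and Cxcl5 had no ratio there because NDKO was at 0. It is the fractalkine receptor of monocytes and of macrophages derived from them. NDWT mice had Cx3cr1 at 0.333, 0.256, 0.345, 0.125 and 0.147 FPKM, and NDKO mice at 0.246, 0.271, 0.143, 0.1 and 0.119 FPKM. HFWT mice had Cx3cr1 at 16.0, 9.05, 8.52, 9.22 and 8.56 FPKM, and HFKO mice at 6.72, 9.52, 8.90, 7.96 and 12.8 FPKM. Control mice lay between 0.10 and 0.345 FPKM and CDAHFD mice between 6.72 and 16.0 FPKM, a log2 fold change of 4.94 ± 0.24, limma adjusted p = 2.06e-12, in WT and 5.08 ± 0.24, limma adjusted p = 2.54e-12, in TSP-1 null. The Cx3cr1 row spans chr9:119901616-120068283 and overlaps Gorasp1 and Csrnp1 on its own strand (9.71 and 4.19 FPKM on average), so fragments of these could be shared. Ccr2 is the receptor of inflammatory monocytes. Control livers held Ccr2 at 0.276, 0.291, 0.351, 0.201 and 0.369 FPKM (NDWT) and 0.106, 0.268, 0.268, 0.284 and 0.116 FPKM (NDKO). CDAHFD livers held Ccr2 at 4.39, 4.00, 3.34, 3.99 and 4.77 FPKM (HFWT) and 2.90, 3.87, 3.31, 2.17 and 3.49 FPKM (HFKO). The diets did not overlap, with log2 fold changes of 3.41 ± 0.20, limma adjusted p = 2.07e-11, in WT and 3.42 ± 0.20, limma adjusted p = 2.74e-11, in TSP-1 null. Ccr1 is a receptor of monocytes and neutrophils for Ccl3, Ccl5, Ccl6 and Ccl9. On control diet, Ccr1 stood at 0.046, 0.021, 0.02, 0 and 0 FPKM in NDWT and at 0.171, 0.016, 0.019, 0.022 and 0.052 in NDKO. On CDAHFD, Ccr1 stood at 1.28, 1.39, 1.79, 1.40 and 1.68 FPKM in HFWT and at 1.22, 1.51, 1.20, 0.626 and 1.58 in HFKO. NDWT livers had 5 Ccr1 fragments over 5 libraries, so the WT ratio is 81.1 (95% interval 34.5 to 251), and in TSP-1 null the log2 fold change was 3.11 ± 0.26, limma adjusted p = 3.33e-09.

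Ccr7, the lymph node homing receptor of T cells and mature dendritic cells, averaged 0.305 ± 0.141 (NDWT), 0.251 ± 0.197 (NDKO), 3.06 ± 1.16 (HFWT) and 2.09 ± 0.583 FPKM (HFKO) (2.92 ± 0.37, limma adjusted p = 7.08e-07, in WT). Cxcr4 is the Cxcl12 receptor present on most leukocytes. Cxcr4 levels on control diet were 0.689, 0.298, 0.249, 0.258 and 0.416 FPKM for NDWT and 0.643, 0.049, 0.148, 0.623 and 0.492 for NDKO. Cxcr4 on CDAHFD was at 6.26, 6.34, 6.14, 5.99 and 3.23 FPKM for HFWT and 4.38, 3.54, 6.27, 3.05 and 5.46 for HFKO. The diets did not overlap, with 3.59 ± 0.38, limma adjusted p = 7.07e-08, in WT and 3.45 ± 0.38, limma adjusted p = 1.41e-07, in TSP-1 null, while Cxcl12 was not called. Cxcr3, the receptor of activated T cells, averaged 0.349 ± 0.109 (NDWT), 0.422 ± 0.236 (NDKO), 1.99 ± 0.685 (HFWT) and 1.40 ± 0.608 FPKM (HFKO) (2.19 ± 0.32, limma adjusted p = 5.87e-06, in WT), and Cxcr6, found on resident T and NKT cells and overlapped on the other strand by Fyco1 (7.55 FPKM on average), averaged 0.615 ± 0.287 (NDWT), 0.364 ± 0.130 (NDKO), 1.69 ± 0.398 (HFWT) and 1.04 ± 0.344 FPKM (HFKO) (1.42 ± 0.31, limma adjusted p = 0.000357, in WT). Xcr1, which marks cross-presenting dendritic cells, averaged 0.171 ± 0.0597 (NDWT), 0.0954 ± 0.0206 (NDKO), 0.634 ± 0.108 (HFWT) and 0.402 ± 0.148 FPKM (HFKO) (1.45 ± 0.22, limma adjusted p = 8.48e-06, in WT). All 9 tested classical receptors were called higher in both genotypes, also after median of ratios scaling, but for 8 of them the direction was fixed by the filter, so this count supports nothing. After quantile normalization Cxcr6 and Xcr1 lost the call in both genotypes, Cxcr3 was among those that lost it in TSP-1 null, and Xcr1 turned to -0.25 in TSP-1 null. With a pseudocount of 1 Xcr1 lost the call in WT (0.48) and in TSP-1 null (0.35), and Cxcr6 lost it in TSP-1 null (0.57).

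Summed over the 18 classical receptor genes, levels were 5.68 ± 0.974 (NDWT), 4.69 ± 0.802 (NDKO), 38.3 ± 4.18 (HFWT) and 29.8 ± 6.56 FPKM (HFKO). Leukocyte markers moved with them. Of the monocyte markers (Ly6c2, Itgam, Plac8) 3 of 3 were higher in each genotype, with summed levels of 3.79 to 5.63 (NDWT), 2.38 to 4.98 (NDKO), 20.2 to 32.8 (HFWT) and 17.3 to 29.1 FPKM (HFKO). The macrophage markers split, with Cd68, Trem2 and Csf1r higher and the Kupffer cell markers Clec4f and Timd4 lower in each genotype, and summed to 85.8 to 121 (NDWT), 79.7 to 132 (NDKO), 149 to 219 (HFWT) and 131 to 226 FPKM (HFKO). Timd4 fell by 3.52 and Clec4f by 1.22 on the log2 scale in WT, while Trem2 rose by 6.15. T cell markers (Cd3e, Cd3d, Cd3g, Cd4, Cd8a, Cd8b1) were 5 of 6 higher in each genotype, all but Cd4, and summed to 1.22 to 3.66 (NDWT), 1.45 to 2.65 (NDKO), 6.22 to 13.0 (HFWT) and 2.23 to 8.18 FPKM (HFKO). NK cell markers (Gzma, Klrb1c, Eomes, Ncr1) were 2 of the 2 tested higher in each genotype and summed to 0.25 to 0.854 (NDWT), 0.266 to 0.555 (NDKO), 2.03 to 4.96 (HFWT) and 1.72 to 4.46 FPKM (HFKO). Of the dendritic cell markers (Zbtb46, Cd209a, Flt3, Clec9a, Siglech) 4 of 5 were higher in each genotype, with summed levels of 1.83 to 2.26 (NDWT), 2.03 to 3.05 (NDKO), 5.53 to 8.28 (HFWT) and 5.29 to 7.72 FPKM (HFKO). Platelet markers (Gp9, Itga2b, Gp1bb and Pf4, which is itself a chemokine) were 2 of the 2 tested higher in WT and 1 in TSP-1 null, with summed levels of 0.935 to 1.60 (NDWT), 1.16 to 3.15 (NDKO), 7.44 to 10.3 (HFWT) and 6.78 to 8.03 FPKM (HFKO). Of these markers both tested NK cell genes, 4 of 6 T cell, 3 of 5 dendritic cell, 1 of 5 macrophage and 1 of 3 monocyte genes passed the filter through CDAHFD libraries only. Beside the marker calls, 44.1% of all tested genes in WT and 41.9% in TSP-1 null were called higher. The part of these cells in the receptor levels was not tested.

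The atypical receptors did not share a direction, but that of Ackr3, which was called higher, was fixed by the filter. Ackr2 is a scavenger of inflammatory CC chemokines. NDWT mice had Ackr2 at 1.59, 1.08, 2.08, 2.91 and 2.02 FPKM, and NDKO mice at 4.18, 2.73, 4.11, 4.29 and 2.98 FPKM. HFWT mice had Ackr2 at 1.42, 1.30, 0.957, 0.954 and 0.831 FPKM, and HFKO mice at 1.14, 1.22, 1.50, 1.09 and 1.70 FPKM. It was the only gene of the 37 called lower on CDAHFD in both genotypes, with changes of -0.73 ± 0.21, limma adjusted p = 0.00438, in WT and -1.39 ± 0.21, limma adjusted p = 8.53e-06, in TSP-1 null, with overlapping groups in WT and separate ones in TSP-1 null. The WT call was lost without NDWT replicate 4, the highest of its group (log2 fold change -0.57), and with a pseudocount of 1 (-0.47). Ackr3, which binds and removes Cxcl12, went up from 0.0926 ± 0.0256 and 0.112 ± 0.104 FPKM in NDWT and NDKO to 0.793 ± 0.401 in HFWT and 0.605 ± 0.123 in HFKO (2.11 ± 0.31, limma adjusted p = 6.24e-06, in WT), a call that quantile normalization removed. The call of Ackr3 in TSP-1 null was lost after quantile normalization and with a pseudocount of 1 (0.53). Ackr4, a scavenger of Ccl19, Ccl21 and Ccl25, averaged 1.15 ± 0.126 (NDWT), 1.17 ± 0.130 (NDKO), 1.25 ± 0.377 (HFWT) and 1.16 ± 0.129 FPKM (HFKO) in its row ENSMUSG00000079355.2, without a call. Acad11, at 112 FPKM on average, covers this row on the opposite strand, so its own level is uncertain.

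Seen as pairs, the 33 ligand and receptor pairs listed from textbook knowledge, leaving out that of Cxcl11, included 17 with both genes tested, and in 14 of these in WT and 15 in TSP-1 null both were called higher. All but 1 of these in each genotype held a gene whose direction was fixed by the filter. Cxcl12 with Cxcr4 and Cxcl12 with Ackr3 were the pairs in which the receptor rose and the ligand did not, in both genotypes, and Cxcl9 with Cxcr3 was so in WT. Several pairs share a gene, so these are not independent counts.

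**Figure D3:**
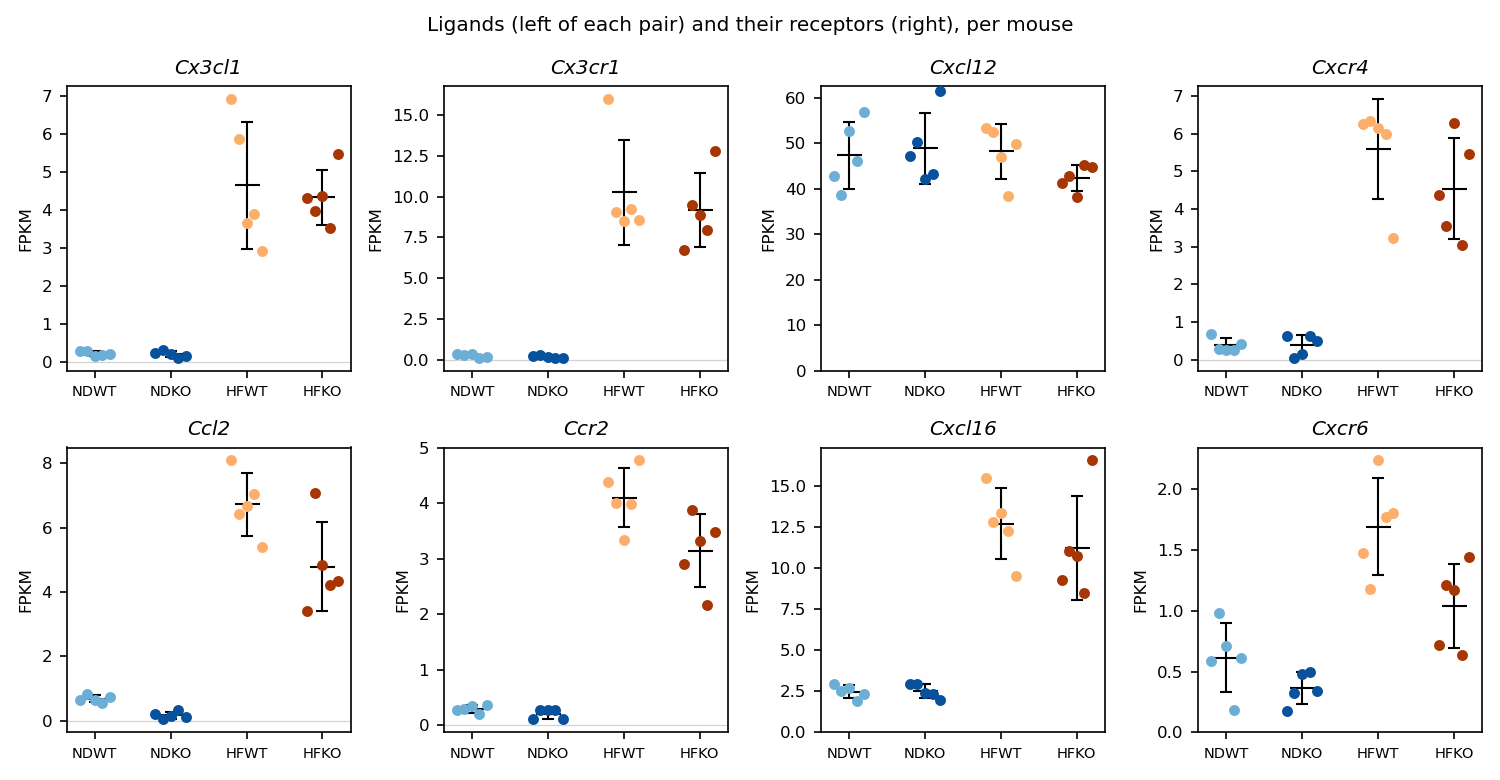
FPKM of 4 ligands, each followed by its receptor, in the 20 mice, with 1 point for each mouse and bars for the mean and SD of 5. Cx3cl1, Ccl2 and Cxcl16 rise with their receptors on CDAHFD, whereas Cxcl12 stays between 38.1 and 61.4 FPKM in all groups while Cxcr4 rises.

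The 23 genes below the filter were Ccl1, Ccl8, Ccl11, Ccl12, Ccl20, Ccl26, Ccl28, Ccl21b, Ccl27b, a second Ccl25 row, Cxcl3, Cxcl15, Cxcl17, Ccr3, Ccr4, Ccr6, Ccr8, Ccr9, Ccr10, Cxcr1, Cxcr2, Cxcr5 and a second Ackr4 row. Cxcl15, Ccl21b, Ccl27b and Ccl25 (ENSMUSG00000055951.9) had 0 fragments in all 20 libraries, and Ccl8 and Ccl26 never had more than 3. The other 17 had more than 3 fragments in at least 1 library. Cxcr2, the neutrophil receptor for Cxcl1, Cxcl2 and Cxcl5, averaged 0.0496 ± 0.0382 (NDWT), 0.0756 ± 0.0295 (NDKO), 0.489 ± 0.201 (HFWT) and 0.405 ± 0.0761 FPKM (HFKO). Ccr9, which binds Ccl25, averaged 0.0998 and 0.078 FPKM on control diet against 0.421 and 0.310 on CDAHFD, and Cxcr5, the B cell receptor for Cxcl13, 0.154 and 0.261 against 0.506 and 0.358 FPKM. Ccr8, a receptor of regulatory T cells, had 0 fragments in all 10 control libraries and at most 8 in a CDAHFD library. In a limma fit without the filter, 19 of the 23 could be fitted. Of these 9 were called higher with diet in WT and 6 higher and 1 lower in TSP-1 null, where 32.5% and 29.7% of all genes fitted were called higher and 2.94% and 2.58% lower. Cxcr2 was called higher in WT (1.96, limma adjusted p = 4.55e-07) and in TSP-1 null (1.53, limma adjusted p = 1.05e-05). Ccl20, the ligand of Ccr6, was called in WT (0.97, limma adjusted p = 0.00581), where no library held more than 6 of its fragments, and Cxcl3 in both genotypes, where every control library was at 0 fragments. The others called higher in WT were Ccr3, Ccr6, Ccr8, Ccr9, Ccr10 and Cxcr5, and in TSP-1 null Ccl12, Ccr3, Ccr6 and Ccr9, while the second Ackr4 row (ENSMUSG00000041748.5) was the one called lower. On the opposite strand Cntnap1 (3.66 FPKM on average) covers Ccr10, Lztfl1 (0.755 FPKM) overlaps Ccr9 and Acad11 (112 FPKM) covers the second Ackr4 row. The levels of these rows are therefore uncertain.

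On control diet the genotypes differed in a few inflammatory chemokines. Of the 37 genes 6 were called between NDKO and NDWT, 5 lower and 1 higher in libraries labelled TSP-1 null, where 4.77% of all tested genes were called, 3.03% lower and 1.74% higher. On the log2(FPKM + 0.1) scale the largest difference was that of Ccl2, from 0.688 ± 0.109 (SD, n = 5) to 0.171 ± 0.108 FPKM, which is 3.09-fold lower on the log2(FPKM + 0.1) scale (log2 fold change -1.63 ± 0.23, limma adjusted p = 0.000224). Cxcl10 was lower in NDKO, from 3.28 ± 0.960 to 1.18 ± 0.420 FPKM (-1.42 ± 0.24, limma adjusted p = 0.00109), and this call held under each alternative tried. Cxcl9 averaged 3.59 ± 2.14 and 1.20 ± 0.128 FPKM (-1.25 ± 0.39, limma adjusted p = 0.0375), a call that was lost without NDWT replicate 2, 3 or 5 or NDKO replicate 1, 2, 3 or 4 (adjusted p 0.057 to 0.106), after quantile normalization (0.0609), without a filter (0.07), with the 2 groups alone (0.0914) and with voom on fragments (0.0764).

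Ccl22 and Ccl7 were called lower too, on few fragments, and without a pseudocount their ratios were above the 4.03 of Ccl2. Ccl7 had 2 to 5 fragments a library in NDWT and 0 or 1 in NDKO, and its WT to TSP-1 null ratio was 5.52 (95% interval 1.58 to 29.6) (-1.17 ± 0.27, limma adjusted p = 0.0071). Ccl22 had 3 to 19 fragments in NDWT and 0 to 3 in NDKO, a ratio of 7.55 (95% interval 3.41 to 19.7) (-1.21 ± 0.31, limma adjusted p = 0.0129), and the nearest mice of the 2 groups were at 0.065 and 0.064 FPKM. With a pseudocount of 1, which weighs low genes less, neither Ccl7 nor Ccl22 was called and Ccl2 missed the fold change limit at -0.53, and Ccl22 was also lost when only the 2 groups compared were fitted (limma adjusted p = 0.0688). Ackr2 was the gene called higher, from 1.93 ± 0.677 to 3.66 ± 0.738 FPKM, 1.91-fold (0.93 ± 0.21, limma adjusted p = 0.00697). NDWT replicate 4 at 2.91 FPKM overlapped with NDKO replicate 2 at 2.73 FPKM. The groups did not overlap for 4 genes, Ccl2, Cxcl10, Ccl7 and Ccl22, each lower in NDKO, against 9.03% of all tested genes, 6.69% lower. Among the 9 tested classical receptors none was called between genotypes on control diet by limma, 0 of them with an unadjusted p under 0.05, a share that was not counted over all tested genes. Cxcr6 was called lower without NDWT replicate 4 (log2 fold change -0.85, limma adjusted p = 0.035), and Cxcl14 was called higher without NDWT replicate 2 (0.62, limma adjusted p = 0.0328).

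**Figure D4:**
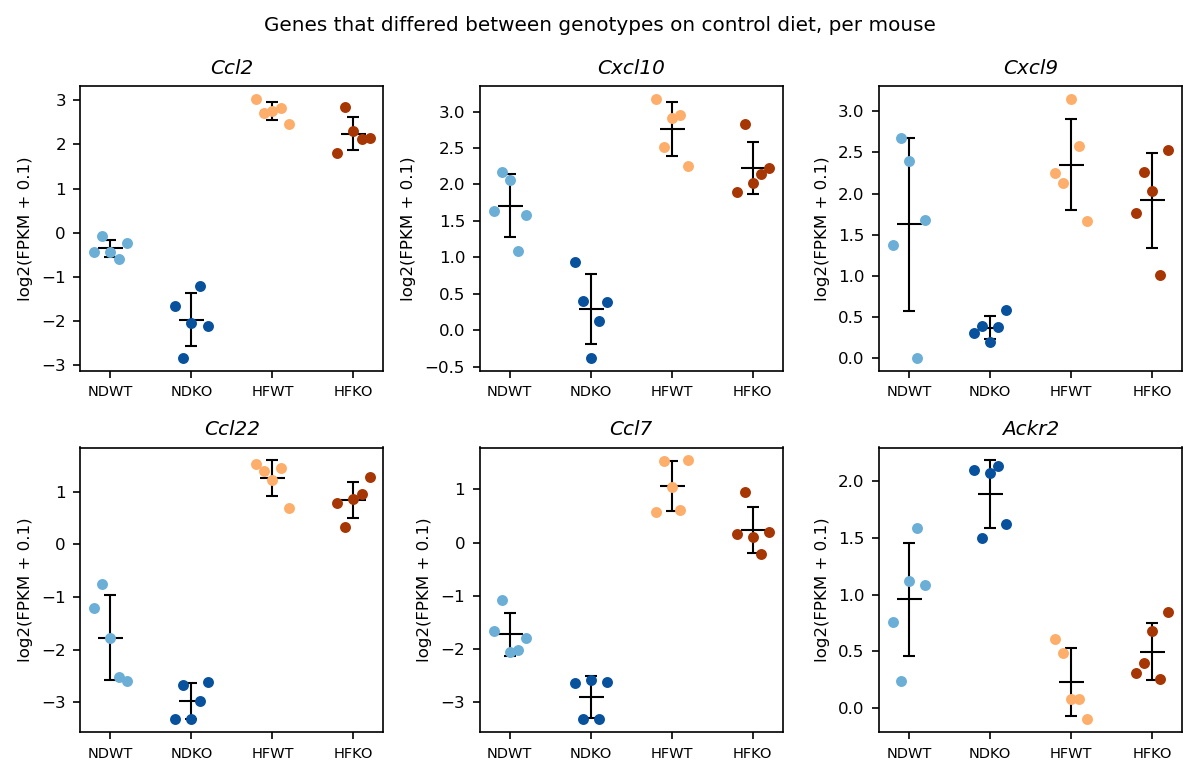
Levels in log2(FPKM + 0.1) of the 6 genes called between NDKO and NDWT, with 1 point for each of the 20 mice and bars for the mean and SD of 5. Ccl2, Cxcl10, Ccl22 and Ccl7 have every NDKO point below every NDWT point, Cxcl9 and Ackr2 overlap, and on CDAHFD the 2 genotypes overlap in all 6.

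On CDAHFD none of the 37 genes was called between the genotypes by limma, where 0.496% of all tested genes were called. An unadjusted p under 0.05 was found for 9 of the 37. That share was not counted over all tested genes, so the number supports nothing. The groups overlapped in every one of the 37, whereas 0.847% of all tested genes lay wholly higher and 4.13% wholly lower in HFKO. With limma without the trend in the spread, or with voom on recovered fragments, 1 was called, Cxcl5, lower in TSP-1 null. Cxcl5 averaged 1.62 ± 0.533 FPKM in HFWT and 0.883 ± 0.228 in HFKO, a log2 difference of -0.79 ± 0.23, limma adjusted p = 0.0933. Ccl7 averaged 2.08 ± 0.695 and 1.13 ± 0.413 FPKM (-0.83 ± 0.27, limma adjusted p = 0.128). The other genes called on control diet had HFKO to HFWT differences of -0.51 ± 0.23 for Ccl2, -0.54 ± 0.24 for Cxcl10, -0.44 ± 0.39 for Cxcl9, -0.42 ± 0.31 for Ccl22 and 0.27 ± 0.21 for Ackr2, with limma adjusted p of at least 0.258. Of the 37 genes 30 had a lower mean log2 level in HFKO, with a median difference of -0.33 against -0.10 over all tested genes, and all 9 tested receptors were among them. The median over all tested genes was itself negative, so most of those were lower in HFKO too, and their share was not counted. The 37 genes are not independent, and this count of signs was not tested. Summed T cell markers also stood lower in HFKO (2.23 to 8.18 FPKM) than in HFWT (6.22 to 13.0 FPKM), with overlap and without a call in any of the 6, and their part was not tested.

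None of the 37 genes was called by the limma test of the interaction of diet and genotype, where 0.647% of all tested genes were called. An unadjusted p under 0.05 was found for 5 of the 37, a share that was not counted over all tested genes. Ccl2 came nearest, with a diet change larger by 1.11 ± 0.32, limma adjusted p = 0.103, in TSP-1 null. The diet change of Cxcl14 was smaller in TSP-1 null, with an interaction of -0.85 ± 0.27, limma adjusted p = 0.134. Cxcl10 (0.88 ± 0.34, limma adjusted p = 0.223), Ccl6 (-0.62 ± 0.27, limma adjusted p = 0.269) and Ackr2 (-0.66 ± 0.30, limma adjusted p = 0.297) were the other 3. A p that misses the threshold does not show that the genotypes respond alike.

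Genes that carry the receptor signal inside the cell moved with the receptors. Of 31 tested genes for G protein subunits, kinases, arrestins, RGS proteins and Rac regulators, 26 were called higher with diet in WT and 27 in TSP-1 null, and 0 were called lower in either, where 44.1% and 41.9% of all tested genes were called higher, and 4 of the 31 passed the filter through CDAHFD libraries only. They had a median log2 fold change of 1.74 and 1.56 against 0.53 and 0.50 over all genes. Pik3r5, the regulatory subunit of PI3 kinase gamma, changed by 3.68 ± 0.22, limma adjusted p = 4.05e-11, in WT. Gng2, a G protein gamma subunit, changed by 2.34 ± 0.15, limma adjusted p = 6.11e-11, Gnb1, a beta subunit, by 1.10 ± 0.07, limma adjusted p = 9.22e-11, and Rgs2, which speeds the shut-off of G proteins, by 2.46 ± 0.16, limma adjusted p = 1.39e-10. Several, such as Rac2 and Vav1, are leukocyte genes, and the leukocyte markers given above moved with them, whose part was not tested. Chemokines and receptors whose names fall outside the symbol pattern were called higher in 6 of 8 cases in WT and 5 of 8 in TSP-1 null, beside the same 44.1% and 41.9%, and 2 of the 8 passed the filter through CDAHFD libraries only. Ccrl2, an atypical receptor that presents chemerin, rose from 0.925 to 3.49 FPKM in WT (1.80 ± 0.14, limma adjusted p = 1e-09), and Pf4, a platelet chemokine, from 0.680 to 7.63 FPKM (3.33 ± 0.29, limma adjusted p = 4.69e-09). Gpr35 changed by 2.88 ± 0.24, limma adjusted p = 2.14e-09, and Cmklr1, the chemerin receptor, by 1.63 ± 0.21, limma adjusted p = 7.84e-07.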

How the data were processed

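Poly(A) RNA of 20 livers was sequenced in pairs on an Illumina instrument. The authors deposited gene FPKM made with QuickRNASeq, and the submitters' processing notes name STAR 2.5.2 and featureCounts of Subread 1.5.1. These notes give GRCh38, a human build, whereas the coordinates in the table are those of mouse GRCm38. Whether counting used strand is not given in the sources used here. FPKM, gene length and library size gave whole fragments for at least 99.98% of values. A fragment count was used for limits of detection and for voom only.

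Groups followed the sample labels. The 14524 genes that exceeded 0.5 FPKM in 5 libraries or more were tested on log2(FPKM + 0.1) by limma (version 3.58.1, R 4.3.3), using lmFit, contrasts.fit and a trended eBayes, with Benjamini-Hochberg adjustment over all of them, a limit of 0.05 and an absolute log2 fold change above 0.58. FPKM are not counts, so no count model was used for the results. A fold change on this scale understates that of low genes. The limma script was tested on simulated data. Ratios against groups with 3 fragments or fewer per library carry exact 95% intervals for counting error only. Alternatives were other pseudocounts, filters and scalings, fits of only the groups compared, eBayes without trend, voom, a replicate block and leaving out each mouse. The remaining steps used pandas 2.3.3 and matplotlib 3.10.9 under Python 3.11.15.

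The genes and lists were chosen with earlier results of these data known. Values in every library are given for genes called between genotypes, the 12 largest called diet changes in each genotype and genes above 2 FPKM on average, and others are named by role, pair or list. Some genes enter the counts and sums but are not reported here. Genes named with a left-out library were chosen after their values were seen. Replicate numbers did not pair the mice, since 0 of 30 pairs of libraries with the same number correlated above 0.1.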

Additional observations from a re-analysis of the deposited data

Results flagged for a closer look

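In 148 sets of 5 mice (37 genes in 4 groups), 3 values lay farther from the rest of their group than Dixon's criterion allows, which chance gives in about 1 of 20 sets. Cxcr4 stood at 3.23 FPKM in HFWT replicate 5, against 5.99 to 6.34 FPKM in the other 4 mice of that group. Cx3cr1 stood at 16.0 FPKM in HFWT replicate 1, against 8.52 to 9.22 FPKM in the others. Ccl19 stood at 0 FPKM in NDWT replicate 5, against 0.269 to 0.396 FPKM in the others. The diet calls of all 3 genes held without these libraries.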

How the results depend on the processing

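The count of genes called with diet stayed within 1.5 times the reported 31 in both genotypes, from 25 to 39 in WT and from 26 to 38 in TSP-1 null. These counts are not all out of 37 genes, since other filters change the genes tested and the fit without a filter added 19. The 6 genotype calls on control diet became 3 (1 higher, 2 lower) with a pseudocount of 1, and the 0 calls on CDAHFD became 1 with limma without the trend and 1 with voom. Without each mouse in turn the counts were 29 to 32 (WT diet), 30 to 32 (TSP-1 null diet), 5 to 7 (genotype on control diet), 0 to 0 (genotype on CDAHFD) and 0 to 0 (interaction). With the replicate number as a block the counts were 31, 31, 6, 0 and 0, so the block changed none of them. For single genes, 5727 values kept their direction and side of the threshold, 62 lost a call, 32 gained one and 2 reversed, both after quantile normalization: Xcr1 in TSP-1 null (-0.25) and Ackr4 (ENSMUSG00000079355.2) in WT (-0.90). The cause was not tested. Over all tested genes, the diet calls in WT went from 6412 higher and 671 lower to 3351 and 2145 after median of ratios scaling and 2514 and 2562 after quantile normalization. Depth limits Ccl7, Ccl22, Cxcl5, Ccl17 and Ccr1 on control diet, which had few fragments.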

Other observations

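Cxcl11, left out of the 60 genes because its row is annotated as a polymorphic pseudogene, is also a ligand of Cxcr3. It averaged 0.533 (NDWT), 0.590 (NDKO), 0.900 (HFWT) and 0.708 FPKM (HFKO). Unlike Cxcl9 and Cxcl10 it was not called between genotypes on control diet (log2 difference 0.11 ± 0.20, limma adjusted p = 0.767), and the difference between these genes was not tested. With diet it was called higher in WT (0.67 ± 0.20, limma adjusted p = 0.00499) and not in TSP-1 null (0.25 ± 0.20, limma adjusted p = 0.255). The second Ackr4 row (ENSMUSG00000041748.5), below the filter, went the opposite way to most of the family, with 44 and 45 fragments summed over NDWT and NDKO against 26 in HFWT and 6 in HFKO. Acad11, at 112 FPKM on average, covers this row on the opposite strand. The other Ackr4 row, which was not called, overlaps it by 4423 bases on the same strand. Its own level is therefore uncertain.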
